A study of Mus musculus with 2 samples.

Results

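The miRNA cluster of the Mir17hg transcript and its paralogue, the miR-106b-25 cluster, are each transcribed as 1 precursor RNA that is cut into several mature miRNAs. The first is called the Mir17hg cluster here, after the host gene that RefSeq gives it. Of the 1881 mouse miRNAs on the array, 10 mature miRNAs of these clusters are described as members. They were picked out by name from a list drawn up with earlier results of these data known. The list leaves out most of the opposite arms of the same hairpins, which are given separately at the end. The members of the Mir17hg cluster were mmu-miR-17-5p, mmu-miR-17-3p, mmu-miR-18a-5p, mmu-miR-19a-3p, mmu-miR-20a-5p, mmu-miR-19b-3p and mmu-miR-92a-3p, and those of miR-106b-25 were mmu-miR-106b-5p, mmu-miR-93-5p and mmu-miR-25-3p. RNA came from exosomes, small vesicles that cells release, shed by mesenchymal stem cells of mouse bone marrow (BMSCs), stromal cells that can form bone, cartilage and fat. Per the study's methods the BMSCs came from C57BL/6 mice through a supplier. One culture was kept in normoxia, at an oxygen level that is not given in the sources used here, and the other at 0.2% oxygen. Medium was collected after 72 h in both, and no other agent or genetic change is named for either. Each condition was measured on 1 array with 1 colour, so no biological replicate exists, no test was run, and every SD and standard error (SE) below is over replicate spots within an array.

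The Mir17hg transcript is induced by Myc and by E2F transcription factors and is known as an oncogenic miRNA cluster that favours proliferation and survival. Its miRNAs fall into families with a shared seed, the bases near the 5′ end that pair with target mRNAs. Members of the miR-17 family repress E2F1 and the cell cycle inhibitor p21. The miR-92 family includes miR-92a, known as an inhibitor of angiogenesis. The miR-106b-25 cluster lies inside Mcm7, which encodes a subunit of the replicative helicase, and its miRNAs carry the seeds of the miR-17 and miR-92 families.

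RefSeq placed the mature members of the Mir17hg cluster at chr14:115043684-115044496 on the plus strand and those of miR-106b-25 at chr5:138165332-138165807 on the minus strand (GRCm38.p6). The Mir17hg cluster's stretch overlapped Mir17hg, its long non-coding host gene, and the miR-106b-25 stretch lay wholly within Mcm7. Mature miR-19b-3p and miR-92a-3p are also made from a second locus each on chromosome X, within the miR-106a-363 cluster, so their signals cannot be assigned to 1 locus. All 10 members had a mature sequence in RefSeq. The sequences are shown because shared seeds and near-identical 3′ ends decide which members can be compared as a family, and which signals a probe may not separate. They run 5′ to 3′, and the capitals mark the seed, bases 2 to 8.

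The seed AAAGUGC was shared by 4 members, 2 of them from each cluster.
mmu-miR-17-5p: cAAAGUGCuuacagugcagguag
mmu-miR-20a-5p: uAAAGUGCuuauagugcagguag
mmu-miR-106b-5p: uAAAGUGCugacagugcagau
mmu-miR-93-5p: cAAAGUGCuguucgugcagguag

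The seed AUUGCAC joined the 3′ members of the clusters.
mmu-miR-92a-3p: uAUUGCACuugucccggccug
mmu-miR-25-3p: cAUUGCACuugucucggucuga

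The remaining 4 members, all of the Mir17hg cluster, carried the miR-19 seed, the miR-18 seed or that of the other arm of the miR-17 hairpin.
mmu-miR-19a-3p: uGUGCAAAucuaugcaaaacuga
mmu-miR-19b-3p: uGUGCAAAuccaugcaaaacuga
mmu-miR-18a-5p: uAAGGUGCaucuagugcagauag
mmu-miR-17-3p: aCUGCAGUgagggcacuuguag

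Compared base by base from the 5′ end without gaps, miR-19a-3p and miR-19b-3p differed at 1 of 23 positions (U11C). miR-17-5p and miR-20a-5p differed at 2 of 23, and miR-92a-3p and miR-25-3p at 3 of 21. miR-106b-5p and miR-93-5p, neighbours in 1 transcript, differed at 5 of 21. Cross-hybridisation between such miRNAs was not tested.

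The members were present in both exosome preparations. Detection of a probe required the scanner software to place over 50% of its spots well above background, and 1 such probe sufficed for a miRNA. In normoxic BMSC-derived exosomes 10 of 10 members were detected, where 12.0% of all miRNAs on the array were. In hypoxic BMSC-derived exosomes 10 of 10 were detected as well, against 10.6% of all miRNAs. Because the list was drawn up with earlier results known and leaves out most opposite arms, these shares are no test of the clusters. Each member had 2 probes of 15 spots, and 18 of the 20 member probes were detected on both arrays. The 2 exceptions were the dimmer probes of the miR-17 hairpin. That of miR-17-5p had 6 of 15 spots above background in normoxia and 0 of 12 in hypoxia, and that of miR-17-3p had 12 of 15 and 3 of 15. Values for miR-17-5p and miR-17-3p therefore rest on 1 probe each.

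The hypoxia array was the noisier of the pair. Over all miRNA probes, the software's median coefficient of variation between spots was 9.68% in normoxia and 15.8% in hypoxia. Among the 18 member probes detected on both arrays the median coefficient was 8.23% in normoxia (range 6.09 to 15.1%) and 14.2% in hypoxia (range 6.51 to 38.7%), and it was higher in hypoxia for 17 of the 18. The part of this noise in the differences below was not tested beyond the SE over spots. The spike-in RNAs added at labelling were also dimmer on the hypoxia array, by -0.44 (dmr_285) and -0.51 (dmr_31a) on the log2 scale without normalization, while those added at hybridization differed by -0.09 (dmr_3) and -0.16 (dmr_6).

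Processed signals are given first as deposited, in arbitrary units, before any normalization between arrays. The signal of miR-18a-5p, the only measured member of the miR-18 family in the Mir17hg cluster, was 118 ± 17.8 in normoxia (SD, n = 15 spots) and 37.5 ± 6.21 in hypoxia (SD, n = 15 spots) on its first probe. On its second probe it was 263 ± 24.8 (SD, n = 15 spots) and 83.2 ± 9.36 (SD, n = 13 spots). Every hypoxia spot was dimmer than every normoxia spot on both probes.

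The miR-19 family was lower in hypoxia on every probe before normalization. For miR-19a-3p the probes read 1008 ± 84.9 and 497 ± 51.4 under normoxia, and 544 ± 77.2 and 243.5 ± 45.2 under hypoxia (SD, n = 14 or 15 spots). For miR-19b-3p they read 6656 ± 535 and 1253 ± 86.7 under normoxia, and 2988 ± 346 and 544 ± 111 under hypoxia (SD, n = 14 or 15 spots). The spots of the arrays did not overlap on any of these 4 probes.

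The miR-17 family did not move as a block. In the Mir17hg cluster, miR-20a-5p read 2320 ± 197 and 3605 ± 219 in normoxia (SD, n = 14 and 13 spots) and 1161 ± 160 and 1964 ± 215 in hypoxia (SD, n = 15 spots each). The single usable probe of miR-17-5p gave 64.4 ± 6.02 and 31.9 ± 6.53 (SD, n = 15 and 14 spots). In miR-106b-25, miR-106b-5p read 450 ± 32.1 and 183 ± 12.6 in normoxia (SD, n = 15 spots each) and 254 ± 33.2 and 103 ± 14.7 in hypoxia (SD, n = 15 and 14 spots). Normoxia and hypoxia spots of these 3 miRNAs were apart on each probe, with hypoxia the dimmer.

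The remaining member of the family ran the other way. The first probe of miR-93-5p read 101 ± 6.65 for normoxia (SD, n = 14 spots) and 131 ± 8.53 for hypoxia (SD, n = 13 spots), and every hypoxia spot was the brighter. Its second probe had means of 603 and 608 over 15 spots each, with coefficients of variation of 12.0% and 13.2%, and the spots overlapped. Before normalization only the first probe of miR-93-5p thus showed a difference beyond its spots.

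In the miR-92 family, the first probe of miR-92a-3p gave 2419 ± 171 on the normoxia side and 1467 ± 183 on the hypoxia side (SD, n = 15 spots each), with no overlap. Its second probe gave 10753 ± 696 and 6997 ± 2352 (SD, n = 13 and 15 spots), and its hypoxia spots ran from 2568 to 9670, so that the brightest lay above the dimmest normoxia spot at 9555. For miR-25-3p the first probe read 356 ± 28.2 in normoxia (SD, n = 13 spots) and 285 ± 110 in hypoxia (SD, n = 15 spots), with hypoxia spots from 17.2 to 412. The second gave 2743 ± 297 and 2769 ± 506 (SD, n = 15 and 13 spots), and the spots of both miR-25-3p probes overlapped between arrays. The other arm of the miR-17 hairpin, miR-17-3p, read 50.7 ± 4.47 and 30.3 ± 5.28 on its detected probe (SD, n = 15 spots each), without overlap.

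Of the 18 member probes, 13 had every hypoxia spot below every normoxia spot, where 37.4% of all 305 probes detected on both arrays did. A single one, of miR-93-5p, had every hypoxia spot above, against 14.1% of all probes. These counts were made on signals that were not normalized between arrays, so they include any difference in overall brightness.

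**Figure D1:**
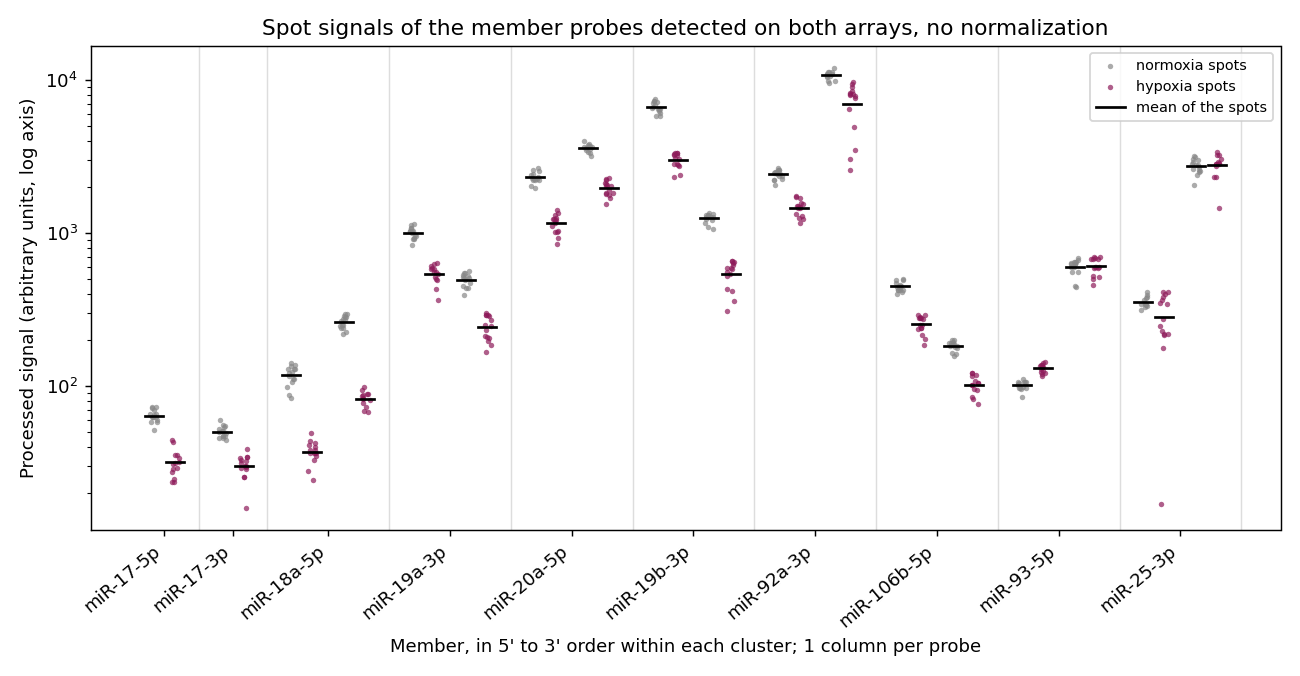
Processed signal (arbitrary units, log axis) of each spot of the 18 member probes detected on both arrays, grey for normoxia and purple for hypoxia, with a bar at the mean; members stand in 5′ to 3′ order within each cluster. Hypoxia spots lie below normoxia spots for the Mir17hg cluster members and miR-106b-5p, save part of the brighter miR-92a-3p probe, while those of miR-25-3p overlap and those of miR-93-5p are level on 1 probe and higher on the other.

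Quantile normalization, which the study names, was then applied to the probe means, and the log2 difference, hypoxia minus normoxia, was averaged over the probes detected on both arrays. The 7 members of the Mir17hg cluster all had values below 0, with a median of -0.54 and a range of -1.23 to -0.24. The 3 members of miR-106b-25 had a median of 0.16 and split, 2 above 0 and 1 below. Over both clusters the median was -0.49, where the median of the 180 miRNAs detected on both arrays was 0.17. In all, 8 of 10 members were below 0, against 42.8% of the 180 miRNAs.

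A 2-fold threshold, taken from the study's text, was passed by 1 member in the lower direction, against 10.0% of all miRNAs detected on both arrays, and by 0 members in the higher direction, against 18.3%. The member share past 2-fold was therefore near the background for lower values. Over all miRNAs the split was 33 higher and 18 lower under quantile normalization. Scaled by the upper quartile over all probes it became 58 and 10, by the hybridization spike-ins 25 and 30, without normalization 20 and 36, and 11 and 11 with normexp background correction. Of 4415 probes, 387 were detected in normoxia and 339 in hypoxia. The upper quartile of all probes therefore lay at the level of undetected probes. The median of the 180 miRNAs moved between -0.27 and 0.66 over the 6 scalings, so the zero point of the differences is set by the scaling.

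The member past 2-fold was miR-18a-5p, at -1.23 ± 0.05 (SE over spots), or 2.35-fold lower in hypoxic exosomes. It was the 16th lowest of the 180 miRNAs. Its probes gave -1.29 and -1.17. It was below 0 under each of the 6 scalings, from -1.66 without normalization to -0.73 with the upper quartile of all probes. It was no longer past 2-fold in the latter, nor with normexp on the median pixel signal at -0.78, where the added offset shrinks the differences of dim probes.

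The miR-19 pair came next. miR-19b-3p was at -0.77 ± 0.05 (SE over spots) and miR-19a-3p at -0.69 ± 0.05 (SE over spots), or 1.70-fold and 1.61-fold lower. Both kept a value below 0 under the 6 scalings. The probes of miR-19a-3p gave -0.86 and -0.52, a gap of 0.34 ± 0.10 (SE over spots), with the brighter probe at -0.52. Within the miR-17 family, miR-20a-5p (-0.54 ± 0.04), miR-17-5p (-0.52 ± 0.09) and miR-106b-5p (-0.46 ± 0.04) lay close together, although the last comes from the other cluster. That closeness depended on the processing: with normexp they were at -0.52, -0.19 and -0.39, and with the software's summed signal at -0.40, -0.78 and -0.58. miR-93-5p, with the same seed, was at 0.58 ± 0.04 (SE over spots), the highest of the 10 and under 2-fold here. It was also the highest under the 5 other scalings, which use 1 factor per array and share 1 order of members. With the software's summed signal it was at 0.15, below miR-25-3p at 0.29, and on the brightest probe alone both were at 0.32. Its probes gave 0.32 ± 0.07 and 0.85 ± 0.04, a gap of 0.53 ± 0.08 (SE over spots).

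miR-92a-3p was at -0.32 ± 0.07 and miR-17-3p at -0.24 ± 0.07 (SE over spots). miR-25-3p was at 0.16 ± 0.08, level with the median of all miRNAs, with 1 probe at 0.32 and the other at -0.01. By quantitative PCR, the study reports this miRNA as higher in hypoxic than in normoxic BMSC-derived exosomes. On the array its sign differed between probes and between scalings, so the array does not settle its direction. Why the methods differ was not tested. Of the 8 members with a value on both probes, miR-25-3p was the only one whose probes differed in sign after quantile normalization.

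**Figure D2:**
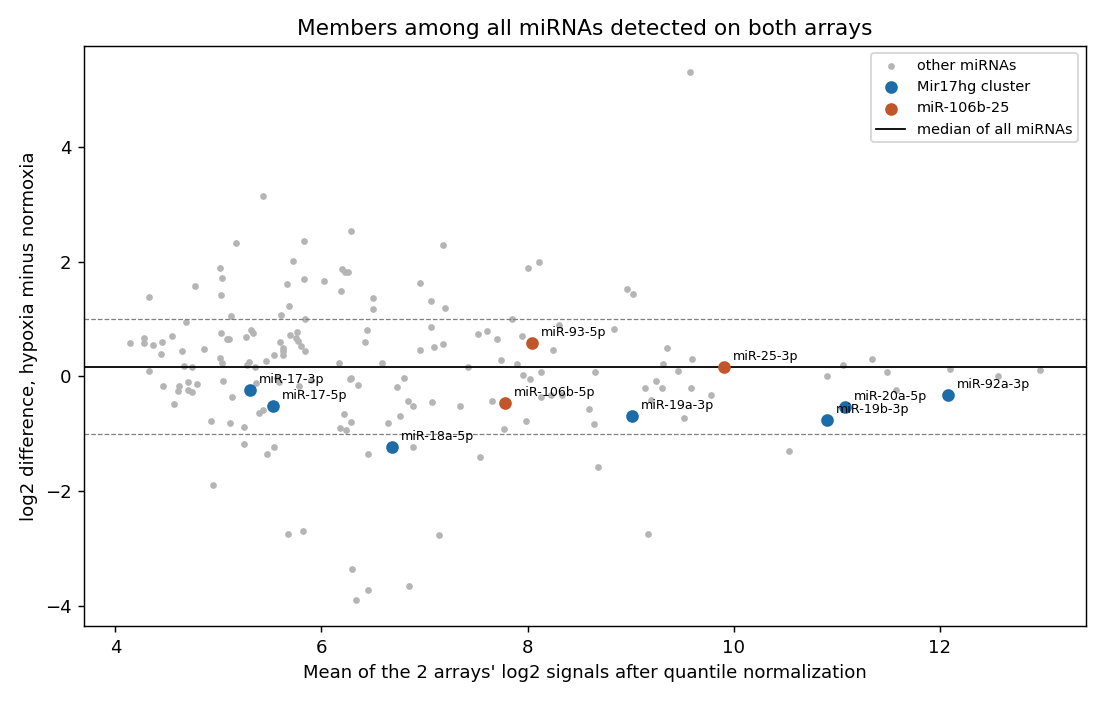
The log2 difference, hypoxia minus normoxia, of the 180 miRNAs detected on both arrays against the mean of their log2 signals, both after quantile normalization; blue points are Mir17hg cluster members, orange points miR-106b-25 members, the solid line the median of 0.17 and the dashed lines 2-fold. The 7 blue points lie below the solid line, miR-18a-5p alone below the lower dashed line, and miR-93-5p lies above the solid line.

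Any single factor per array cancels when the members are set against one another, so these contrasts do not depend on the choice among scalings that use 1 factor per array. Without normalization the largest contrast was between miR-18a-5p and miR-93-5p, which differed by -1.85 ± 0.06 (SE over spots) in log2 difference. After quantile normalization, which bends the scale with brightness, it was -1.82. Relative to the median of the 10 members, miR-93-5p stood at 1.08 and miR-25-3p at 0.73. miR-18a-5p stood at -0.77 and miR-19b-3p at -0.30, and the other 6 members lay between -0.13 and 0.21.

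Several members of the same cluster differed by more than their spot error. Within miR-106b-25, miR-106b-5p was below miR-93-5p by a log2 contrast of -1.02 ± 0.06 and below miR-25-3p by -0.68 ± 0.09 (SE over spots). miR-93-5p was above miR-25-3p by 0.35 ± 0.09, a contrast of the same size as the 0.34 and 0.36 by which the probes of each of these miRNAs differed between themselves without normalization. The order of these 2 turned with the summed signal. Within the Mir17hg cluster, miR-18a-5p was below the adjacent miR-19a-3p by -0.70 ± 0.07 and below miR-92a-3p by -0.99 ± 0.09 (SE over spots). miR-92a-3p and miR-19b-3p are also made from chromosome X, so contrasts with them need not lie within 1 transcript. The miR-19 pair, which differ at 1 base, were 0.22 ± 0.07 apart (SE over spots) without normalization but 0.07 apart after quantile normalization, about the spot error. Between themselves the probes of miR-19a-3p differed by 0.34 ± 0.10 (SE over spots) after quantile normalization and by 0.14 without it. miR-17-5p and miR-20a-5p were -0.08 ± 0.09 apart, which is within the spot error. Between the clusters, the seed partners miR-92a-3p and miR-25-3p were -0.52 ± 0.11 apart, and miR-20a-5p and miR-106b-5p -0.11 ± 0.06 (SE over spots). These errors leave out the spread between cultures, exosome isolations and labellings, which 1 array per condition cannot give.

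**Figure D3:**
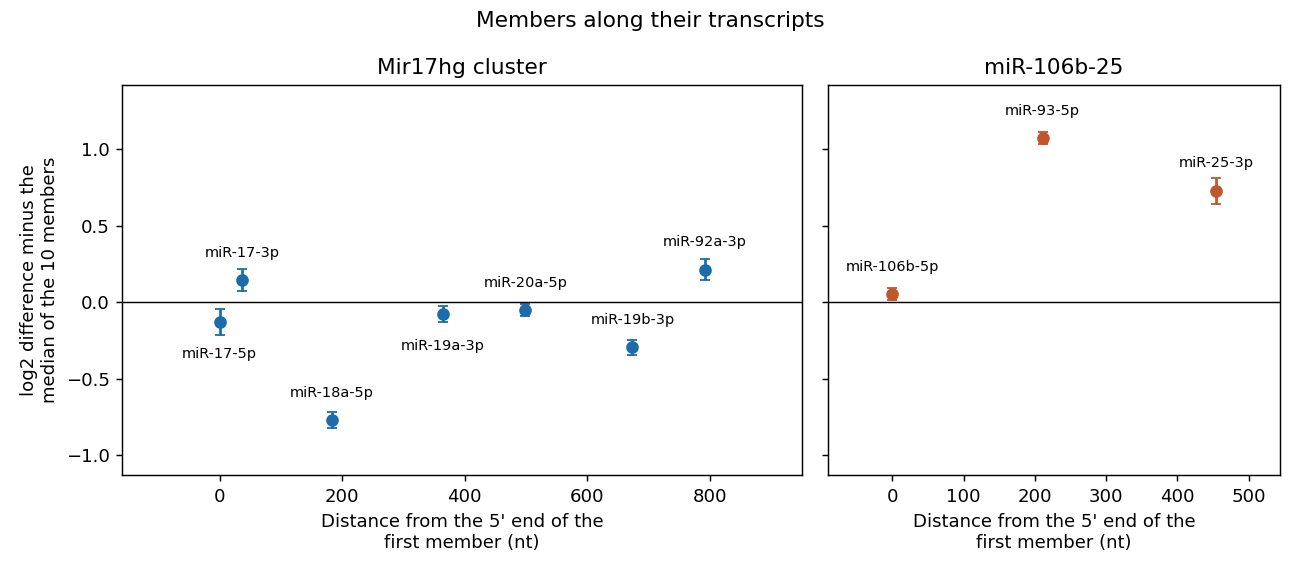
Each member's log2 difference minus the median of the 10 members, computed without normalization, against the distance in nucleotides of its 5′ end from that of the first member of its cluster; error bars are the SE over spots. miR-18a-5p at -0.77 stands below its neighbours in the Mir17hg cluster, and in miR-106b-25 miR-106b-5p stands at 0.05 while miR-93-5p and miR-25-3p stand at 1.08 and 0.73.

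The 5 scalings other than quantile normalization shift all members alike against 0. Which members kept their sign under them therefore followed from how far their values lay from 0. The values of miR-17-5p, miR-18a-5p, miR-19a-3p, miR-19b-3p and miR-20a-5p were below 0 under the 6 scalings, although 3 of the 5 came within 0.1 of 0 with the upper quartile of all probes. miR-93-5p was above 0 under the 6, from 0.19 without normalization to 1.12 with the upper quartile of all probes. miR-17-3p, miR-92a-3p and miR-106b-5p were above 0 with the upper quartile of all probes, at 0.19, 0.26 and 0.10, and below it otherwise among the scalings. miR-25-3p was below 0 without normalization (-0.16) and with the hybridization spike-ins (-0.03). Set against the median of all miRNAs under the same scaling, the member median was -0.66 after quantile normalization. It was -0.61 under the 5 other scalings, which must give the same value because 1 factor per array cancels. With normexp it was -0.43, and with the software's summed signal -0.81.

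**Figure D4:**
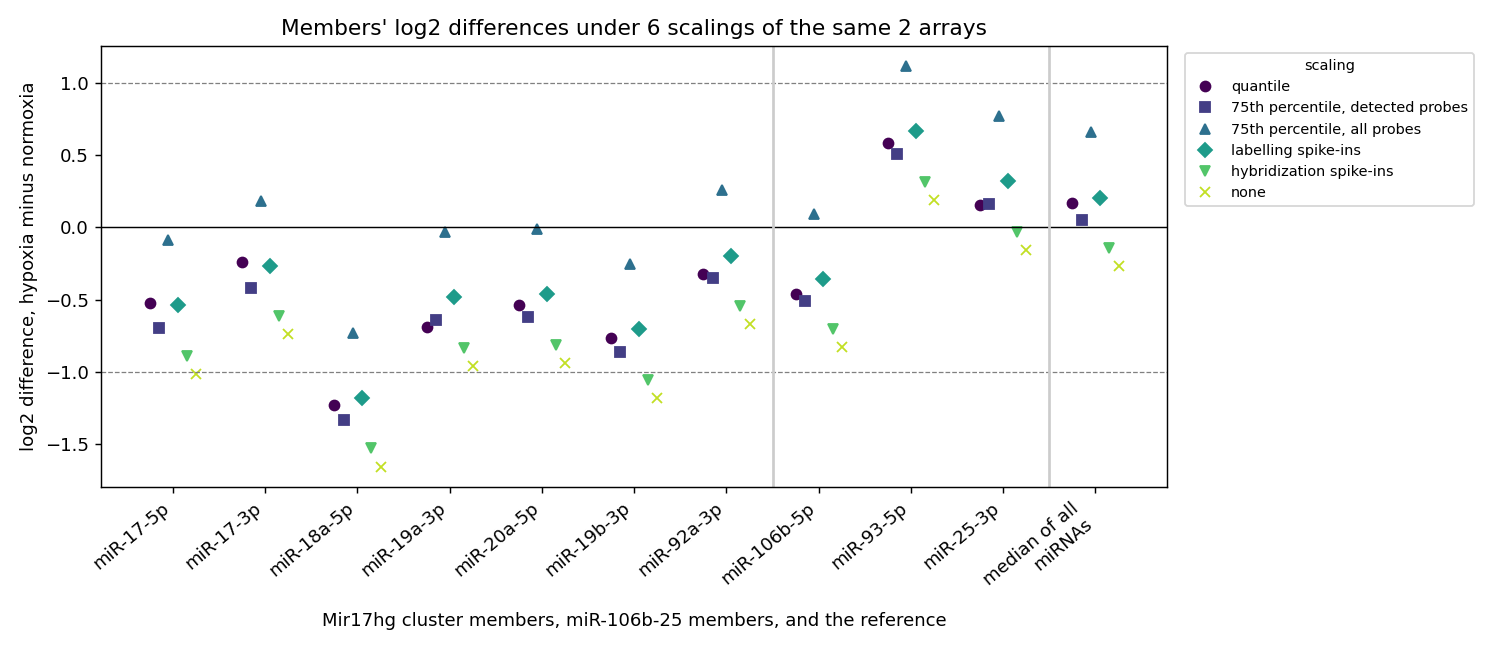
The log2 difference, hypoxia minus normoxia, of each member and of the median of the 180 miRNAs detected on both arrays under 6 scalings, with dashed lines at 2-fold. All columns shift in much the same way with the scaling, from no normalization at the bottom to the upper quartile of all probes at the top, while miR-18a-5p remains the lowest member and miR-93-5p the highest under each.

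Each hairpin yields a pair of strands, of which usually one is retained. Of the 10 other arms listed, including those of the chromosome X copies of miR-19b and miR-92a, 1 was detected in normoxia and 0 in hypoxia, near the 12.0% and 10.6% of all miRNAs on the array. That one was miR-18a-3p, on 1 of its 4 probes, at 18.5 ± 3.03 in normoxia (SD, n = 7 spots, 5 of them above background) and 5.79 ± 2.19 in hypoxia (SD, n = 7 spots, 0 above background). The normoxia signal was no brighter, once normalized, than the dimmest detected probe of the hypoxia array, so no fold is given. The arms mmu-miR-19a-5p, mmu-miR-19b-1-5p, mmu-miR-20a-3p, mmu-miR-92a-1-5p, mmu-miR-92a-2-5p, mmu-miR-19b-2-5p, mmu-miR-106b-3p, mmu-miR-93-3p and mmu-miR-25-5p were not detected on either array. In the miR-17 hairpin both arms were detected. Without normalization the log2 difference, hypoxia minus normoxia, of miR-17-5p lay below that of miR-17-3p by -0.27 ± 0.11 (SE over spots).

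The third paralogue is miR-106a-363 on chromosome X. Besides miR-19b-3p, miR-92a-3p and the arms opposite them, 7 of its mature miRNAs were measured. Of these mmu-miR-20b-5p was detected on both arrays, a share near that of all miRNAs (12.0% and 10.6%), and the other 6, mmu-miR-106a-3p, mmu-miR-18b-5p, mmu-miR-18b-3p, mmu-miR-20b-3p, mmu-miR-363-3p and mmu-miR-363-5p, on neither. mmu-miR-106a-5p was looked for but had no entry under that name on the array, so it has no value here. miR-20b-5p is shown because it has the miR-17 seed and is close to the members throughout.
mmu-miR-20b-5p: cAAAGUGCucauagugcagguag

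It differed from miR-20a-5p and from miR-17-5p at 2 of 23 positions each. Its probes read 673 ± 58.1 and 1745 ± 182 in normoxia (SD, n = 15 and 14 spots) and 308 ± 50.5 and 839 ± 55.6 in hypoxia (SD, n = 15 and 12 spots), with no overlap of spots. Its log2 difference was -0.72 ± 0.04 (SE over spots). Among the scalings it ran from -1.09 without normalization to -0.17 with the upper quartile of all probes. Whether its probes also captured miR-20a-5p was not tested.

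Seeds could be looked up for 1608 of the 1881 array names. Of the 9 other miRNAs among these that share a full seed with a member, miR-20b-5p was the one detected, again near the 12.0% and 10.6% of all miRNAs. mmu-miR-6383, which carries the miR-17 seed, was detected on neither array. mmu-miR-32-5p, mmu-miR-92b-3p, mmu-miR-363-3p and mmu-miR-367-3p, which carry the miR-92 seed, were detected on neither array. Among the names with a sequence, the signal under the miR-92 seed in these exosomes was thus measured on miR-92a-3p and miR-25-3p.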

How the data were processed

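The authors deposited intensity values per spot from 1-colour images. The file headers name Feature Extraction 11.5.1.1, which had subtracted background, flagged outliers and called spots well above background with flags of 0 or 1. The deposited processed intensity, the summed intensity per miRNA and the median pixel intensity of spot and background carry no normalization between arrays. The study names Agilent's miRNA labelling kit, while the labels describe reverse transcription of total RNA.

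A spot carrying 1 or more of 4 outlier flags was dropped (2.96% of miRNA spots in normoxia, 3.45% in hypoxia). The rest were averaged per probe, quantile-normalized over 4415 probes and turned into log2 differences per miRNA (Python 3.11.15, numpy 2.4.6, pandas 2.3.3). The procedure was tested on data simulated from the normoxia probe means and SDs. The greater noise of the hypoxia array was not modelled, so this gives no measure of the precision of the values above. No miRNA spot was saturated. A miRNA detected on 1 array only would get a bound. Alternatives were 5 other scalings (among them the 75th percentile, called the upper quartile), normexp (offset 50, limma 3.58.1 in R 4.3.3), other spot, probe and filter rules, and the software's summed signal. Mature sequences came from RefSeq (GRCm38.p6, while the array design names mm9) and matched 1608 of 1881 array names. Every listed miRNA is named. The members and lists were chosen with earlier results of these data known. Both arrays lay on 1 slide in 1 scan. Slide position is confounded with condition, and these cannot be told apart. The number of arrays limits the precision.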

Additional observations from a re-analysis of the deposited data

How the results depend on the processing

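No paired analysis was possible because there is 1 array per condition, and no array could be left out. The 10 members were detected on each array under each filter run. Of the scalings, the upper quartile of all probes rested on a signal at the level of undetected probes. Scaled by the upper quartile of all probes, the member median turned from -0.49 to 0.043, the Mir17hg cluster median moved from -0.54 to -0.034 and the miR-106b-25 median from 0.16 to 0.77, 1 member was at least 2-fold higher and 0 lower, and 58 of all miRNAs were higher and 10 lower, with a median of 0.66. miR-17-3p (0.19), miR-92a-3p (0.26) and miR-106b-5p (0.10) then changed sign. Without normalization the medians were -0.88, -0.96 and -0.16, 3 members were at least 2-fold lower, 20 of all miRNAs were higher and 36 lower, and the median of all miRNAs was -0.27. With the hybridization spike-ins the cluster medians were -0.84 and -0.031, 2 members and 30 of all miRNAs were at least 2-fold lower, and the median of all miRNAs was -0.14. miR-25-3p changed sign under both (-0.16 and -0.031). In these the change follows from the factor applied. With normexp, 0 members were at least 2-fold lower, 11 of all miRNAs were higher and 11 lower, and the spread among members was 1.19 in place of 1.82. All miRNAs at least 2-fold lower numbered 9 when every spot had to be above background, and 182 were higher and 112 lower of 753 with no filter, as fewer or more probes then entered. With the software's summed signal miR-17-3p was at 0.053 and miR-93-5p (0.15) fell below miR-25-3p (0.29), and the cause was not tested. Of the 110 values of single members under alternatives, 79 moved by less than the spot SD, 25 by more with the same sign, and 6 changed sign. The spot SD, typically 0.27 on the log2 scale for a member, is larger than the SE over spots of every member. A move below that SD is therefore no agreement within the SE. The 110 values are not separate checks. Each member kept its main value when every spot had to be above background. The 5 other scalings use 1 factor per array, shared by all members.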
